A study of Mus musculus with 6 samples.

Results

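The ABC transporter genes of germinal centre B cells were examined in mice with and without a conditional deletion of Lsd1. The genes were taken as all rows of the count table whose symbol begins with Abca to Abcg followed by a digit, which gave 39 of 15861 genes. They cover all 7 subfamilies, A to G, and all 39 were found in the mm10 gene annotation. RefSeq lists 50 protein-coding mouse genes of this naming pattern, and the other 11 were not analysed here.

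Polyadenylated RNA came from germinal centre B cells sorted by the surface markers B220+, GL7+ and FAS+. Such cells divide and mutate their antibody genes while they compete for antigen. WT denotes 3 libraries of C57BL/6 mice with genotype Lsd1 f/f, that is, with floxed Lsd1 alleles and no Cre. KO denotes 3 libraries of C57BL/6 mice with genotype Cgamma-cre+/-; Lsd1 f/f, which carry the same floxed alleles together with 1 copy of the Cre allele. Both groups therefore share the floxed alleles, and no mouse with Cre alone was analysed here, so effects of Cre and of the deletion cannot be told apart. The series describes 3 littermate mice of each genotype. As background, Cre alleles of this name are driven from an immunoglobulin gamma constant region gene, which is transcribed in activated B cells. The labels give no age and no immunisation.

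ABC transporters are membrane proteins that couple the binding and hydrolysis of ATP to the movement of lipids, peptides, metal complexes, drugs and conjugates across membranes. Subfamilies A and G hold many lipid and sterol exporters, B and C hold the drug and conjugate pumps, and several B and D members work as half-transporters, which pair to form a pump, of mitochondria, lysosomes and peroxisomes. Proteins of subfamilies E and F have the ATP-binding domains but no membrane domain, and act on ribosomes. In lymphocytes the drug pump P-glycoprotein is best known for the efflux of fluorescent dyes. It is encoded by a single gene in humans and by the neighbouring paralogues Abcb1a and Abcb1b in mice.

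The libraries held 3.39 to 5.52 M counts in WT and 12.3 to 14.3 M counts in KO, so depth and genotype cannot be told apart. Levels are given as counts-per-million (CPM) on TMM-scaled library sizes, on which 1 count was worth 0.195 to 0.312 CPM for WT libraries and 0.0706 to 0.0759 CPM for KO libraries. Kdm1a, the present symbol of Lsd1, held 134, 85.2 and 92.6 CPM in the libraries WT 1, WT 2 and WT 3, and 81.9, 33 and 21.8 CPM in KO 1, KO 2 and KO 3. The library labelled KO 1 thus lay just below the lowest WT library and apart from the other KO libraries. With all libraries Kdm1a had a log2 fold change of -1.19 with an SE of 0.50 (adjusted p = 0.393 in edgeR), and without KO 1 one of -1.93 (adjusted p = 0.0169 in edgeR). For markers of cell types the CPM were summed on the library totals. The 11 markers of germinal centre B cells gave sums of 8500, 11800 and 9930 across WT and 7440, 9480 and 9220 across KO, with Mef2b at 0 in WT 2 and WT 3 and at most 0.456 CPM elsewhere. Cd79b (log2 fold change -0.67, SE 0.26, edgeR adjusted p = 0.334) and Cd79a (-0.48, SE 0.21, edgeR adjusted p = 0.364) were lower in KO without overlap. The groups of the other tested markers of this list overlapped. Their log2 fold changes ran from -0.60 for Gcsam (SE 0.27, edgeR adjusted p = 0.389) to 0.35 for Ptprc (SE 0.28). The 15 macrophage markers, none of them at 0 in any library, gave 371, 1540 and 2800 across WT and 278, 227 and 3680 across KO. Among them Itgam went against that order and was highest in KO 1, at 0.263, 3.32 and 0.623 CPM across WT and 18.8, 2.47 and 4.72 across KO. The 4 erythroid markers in the table gave 1.32, 7.96 and 23 across WT and 0.649, 1.05 and 11.5 across KO. These small sums were highest in WT 3, KO 3 and WT 2, as the macrophage sums were.

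One ABC transporter gene differed between the genotypes past the threshold. Abcb1b rose 3.80-fold in KO, and the other 27 of the 28 members that passed the filter on low counts did not pass the test. That is 3.57% of the tested members, against 0.0824% of all 10926 genes tested, of which 9 passed, 8 higher (0.0732%) and 1 lower (0.00915%) in KO (edgeR quasi-likelihood test, Benjamini-Hochberg adjustment over all genes, threshold 0.05). At an unadjusted p under 0.05 the count was again 1 of 28, or 3.57%, where the background was 12.6%. The KO and WT libraries did not overlap for 3 members, Abcb1b and Abcd4 on the higher side and Abcb10 on the lower side, which is 10.7% against 18.0% of all genes tested (10% higher and 7.95% lower). Of the 28 members 15 had a log2 fold change above 0, or 53.6%, against 51.3% of all genes, and the median was 0.03, against 0.01. Apart from the rise of Abcb1b, these shares were near or below those of the whole table.

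**Figure D1:**
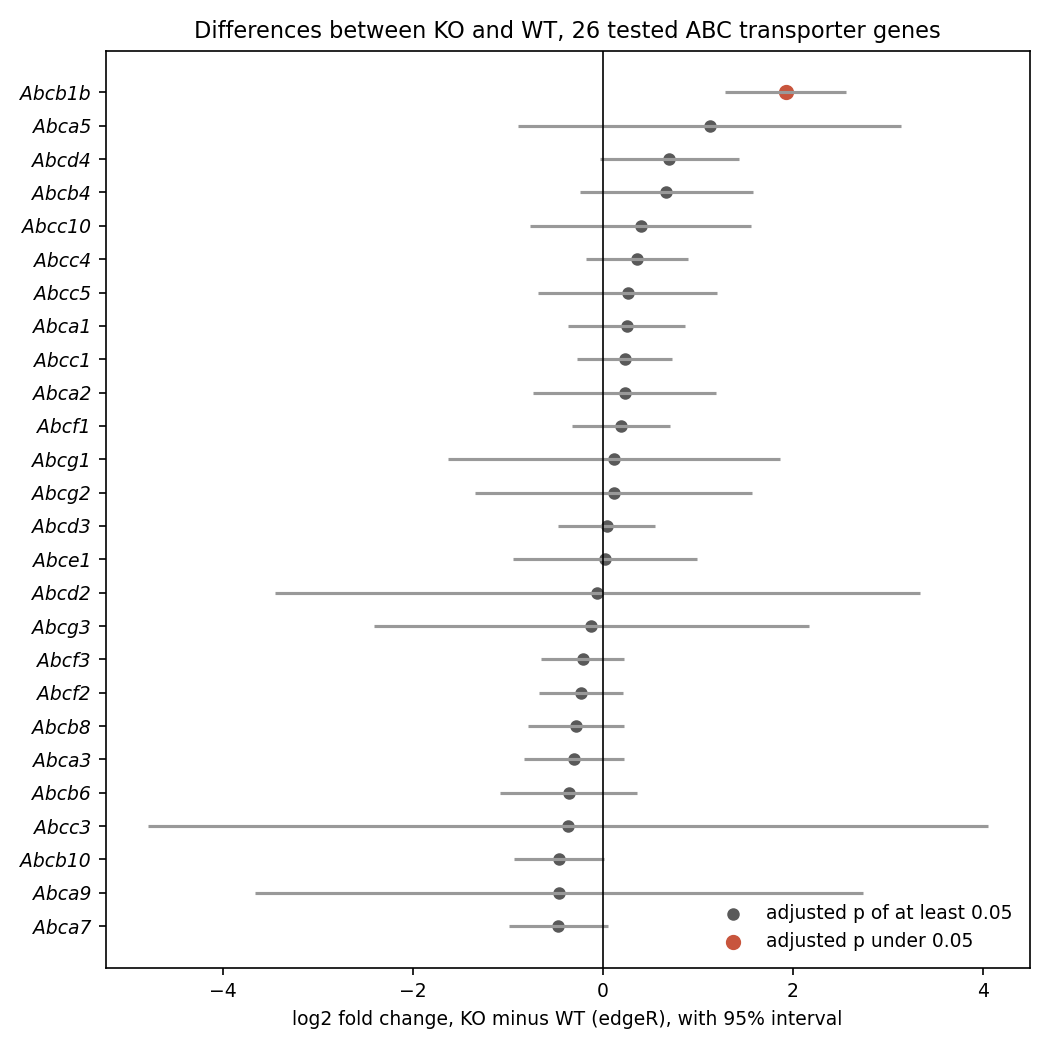
Log2 fold change of KO minus WT for 26 tested ABC transporter genes (edgeR, 3 libraries a group), with bars for the 95% interval of the fitted value. Abcb1b at 1.93 is the 1 gene past the threshold, and Abcc3, Abcd2 and Abca9 have the widest intervals.

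The drug pump pair was described first, since a read from one paralogue can match the other. Abcb1a (chromosome 5, 8660077 to 8748575 on the plus strand, mm10) and Abcb1b (8798147 to 8866315 on the same strand) are 49571 bases apart, and Abcb4 follows 27401 bases further on (8893717 to 8959231). Their coding sequences have the same length, 3831 bases. The aligned bases of Abcb1a and Abcb1b are 88.2% identical, and those of Abcb4 are 77.4% identical to Abcb1a and 76.1% to Abcb1b. Of all windows of 50 bases in the Abcb1a transcript 15.5% occur letter for letter in that of Abcb1b, and of windows of 100 bases 7.49% do. A read that falls wholly within such a window cannot be placed. The longest run shared by Abcb1a and Abcb1b is 338 bases long and lies in the part of the coding sequence for the first ATP-binding domain. Its first 120 bases, from base 1366 to base 1485 of the Abcb1b coding sequence, are shown 5′ to 3′ beside the aligned stretch of Abcb4, in which capitals mark the 28 bases that differ.
Abcb1a and Abcb1b: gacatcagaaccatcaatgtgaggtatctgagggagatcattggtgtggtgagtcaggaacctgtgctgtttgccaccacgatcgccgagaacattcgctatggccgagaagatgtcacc
Abcb4: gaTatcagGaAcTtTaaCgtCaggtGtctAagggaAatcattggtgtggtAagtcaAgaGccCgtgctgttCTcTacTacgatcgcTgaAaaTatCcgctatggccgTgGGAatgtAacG

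Nearly all counts of the pair were assigned to Abcb1b. Abcb1a had 4, 0 and 0 counts in WT 1, WT 2 and WT 3 and 6, 10 and 13 in KO 1, KO 2 and KO 3. In CPM that was 1.05, 0 and 0 in WT and 0.456, 0.706 and 0.929 in KO, and the zeros allow up to 0.586 CPM in WT 2 and 0.935 CPM in WT 3 (3 counts, counting error only). Abcb1a therefore did not pass the filter, and no difference was detectable at this depth.

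Abcb1b was read at 5.78, 8.99 and 5.61 CPM in WT, from 22, 46 and 18 counts. In KO it was read at 24.1, 25 and 29.3 CPM, from 317, 354 and 410 counts. The lowest KO library held 24.1 CPM and the highest WT library 8.99, so the groups did not overlap, and KO 1, whose Kdm1a level was close to WT, lay with the other KO libraries. Mean levels were 6.79 ± 1.91 CPM for WT and 26.1 ± 2.80 CPM for KO (SD, n = 3 each). On the log2 scale this was a change of 1.93 (SE 0.29, 95% interval 1.29 to 2.56, edgeR adjusted p = 0.0372), a difference larger than the spread within either group. T cells and plasma cells are other lymphocytes that a sort could hold. The 7 T cell markers in the table summed to 6.34, 8.51 and 11.5 CPM across WT and 9.82, 5.23 and 15.3 across KO, and the 7 plasma cell markers to 2220, 3220 and 2780 across WT and 2540, 2960 and 3240 across KO. Both sums overlapped between the genotypes, but some single markers moved with Abcb1b, and others did not or went the other way. Irf4, a transcription factor of activated B cells and plasma cells, held 46.7, 30.5 and 34.3 CPM across WT and 104, 49.3 and 85.5 across KO, without overlap (log2 fold change 1.10, SE 0.29, unadjusted p = 0.00298, adjusted p = 0.213 in edgeR). Prdm1, the plasma cell regulator Blimp-1, held 4.20, 3.13 and 1.56 CPM across WT and 26.9, 3.18 and 14.3 across KO (log2 fold change 2.30, SE 0.77, unadjusted p = 0.0185, adjusted p = 0.305 in edgeR). In KO 2 Prdm1 lay within WT while Abcb1b did not. The larger part of the plasma cell sum came from Jchain, Mzb1 and Xbp1, whose groups overlapped. Sdc1 overlapped as well, at 7.35, 5.08 and 7.48 CPM across WT and 8.43, 3.32 and 6.86 across KO. Of the T cell markers Cd3d had 0, 1 and 0 counts across WT and 15, 5 and 4 across the deeper KO libraries. Cd28 held 0, 1.56 and 0.312 CPM across WT and 2.58, 1.27 and 2.29 across KO, and Cd8a had at most 1 count in any library. Lat was lower in KO without overlap, at 3.94, 2.35 and 3.12 CPM across WT and 1.75, 1.48 and 0.357 across KO. Its log2 fold change was -1.37 (SE 0.64, edgeR adjusted p = 0.404). Cd4, the leading T cell marker in WT 2, WT 3, KO 2 and KO 3, was highest in WT 3 and KO 3, at 7.79 and 10.9 CPM. The part of plasma cell or T cell transcripts in the level of Abcb1b was not tested.

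The sum of both genes does not depend on how their reads were split, although reads discarded for matching both would be missing from it. It was 6.83, 8.99 and 5.61 CPM across WT and 24.5, 25.7 and 30.2 across KO, a log2 fold change of 1.89 with an SE of 0.28 (adjusted p = 0.0372 in edgeR). Abcb1b made up 84.6%, 100% and 100% of the pair's counts in WT and 98.1%, 97.3% and 96.9% in KO, with exact 95% binomial intervals of 65.1 to 95.6% for WT 1 and 94.8 to 98.4% for KO 3. The mean share was 2.57 percentage points higher in KO, within the spread of WT (exact permutation test over libraries, two-sided, p = 1, where 3 against 3 cannot go below 0.1). Without WT 1 the mean share was lower in KO (-2.56 points), a difference given without a test.

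The call of Abcb1b depended on single libraries. It was lost without WT 1 (edgeR adjusted p = 0.0538), without WT 2 (0.0501), without WT 3 (0.355) and without KO 2 (0.111), and by limma-voom with all libraries (0.167), while the log2 fold change stayed between 1.70 and 2.19 in all 18 alternatives. Thinned to the depth of the smallest library it was 1.95. Exons of Gm5106 on the opposite strand overlap 143 bases, or 1.79%, of the exon bases of Abcb1b, and since no source used here gives the strand setting of the counting, reads there cannot be assigned with certainty.

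**Figure D2:**
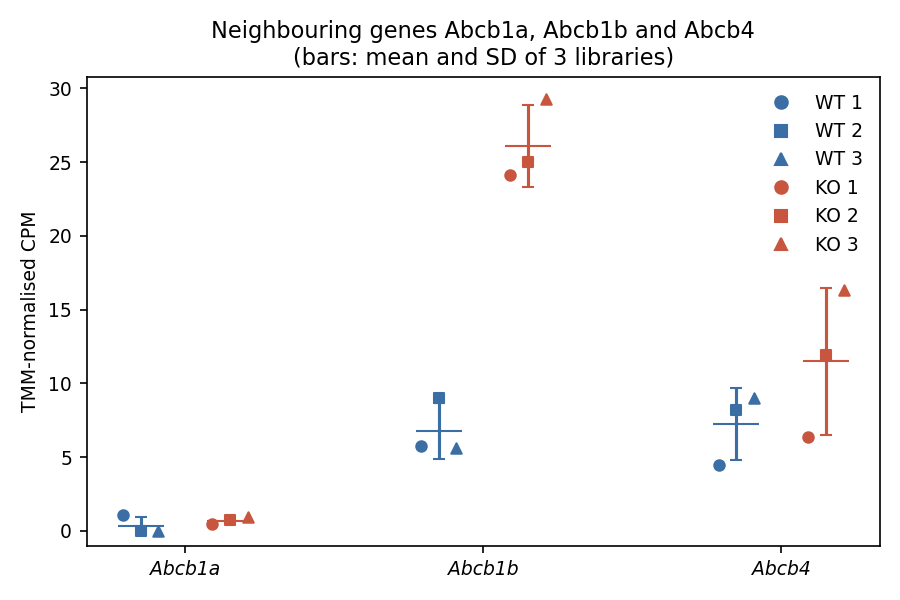
TMM-normalised CPM of the neighbouring genes Abcb1a, Abcb1b and Abcb4 in each library, with the mean and SD of 3 libraries a group. The KO libraries of Abcb1b sit between 24.1 and 29.3 CPM, all above the WT libraries, whereas the groups overlap for Abcb4.

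**Figure D3:**
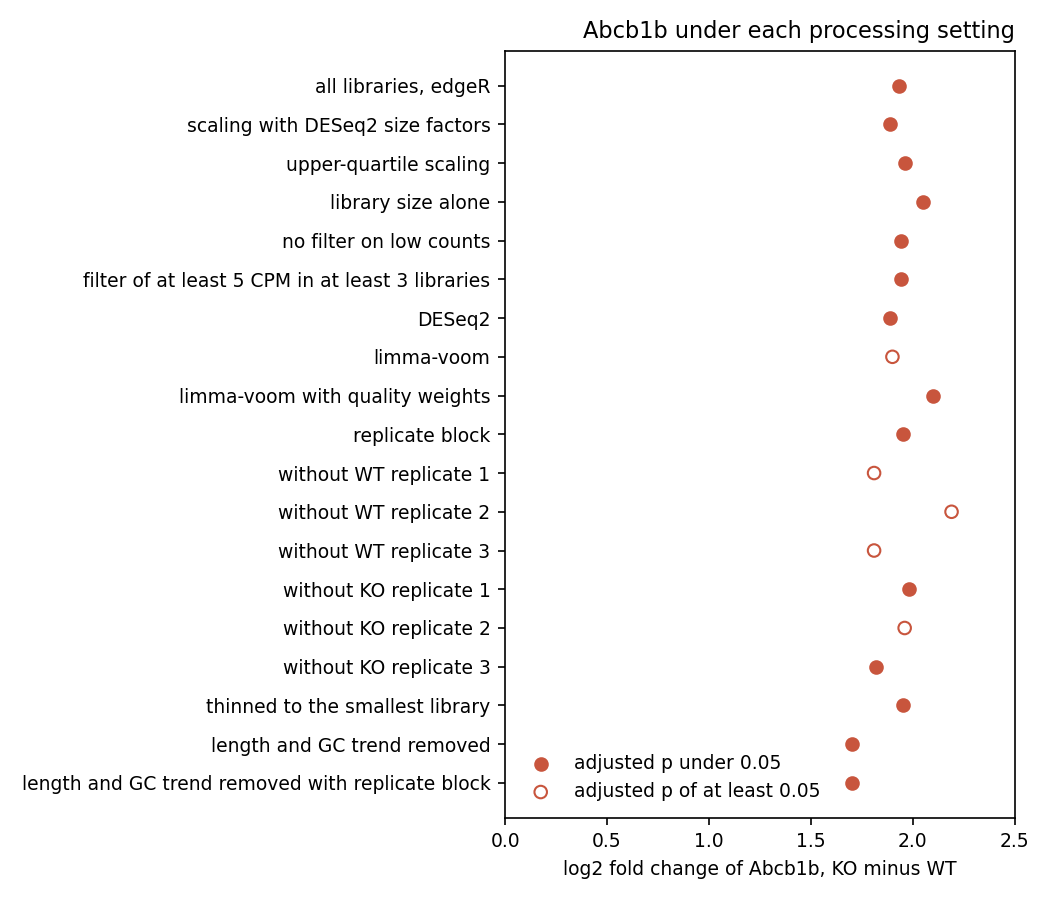
Log2 fold change of Abcb1b, KO minus WT, with all libraries and under 18 other settings, with filled points where the adjusted p was under 0.05. All values lie between 1.70 and 2.19, and 13 of the 18 alternatives passed.

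The neighbour Abcb4, which encodes the phosphatidylcholine exporter of bile, was read at 4.46, 8.21 and 9.04 CPM across WT and 6.38, 11.9 and 16.3 across KO. Its groups overlapped, and its change of 0.67 on the log2 scale, with an SE of 0.42 (adjusted p = 0.524 in edgeR), did not pass. The start regions of the 3 neighbours are shown because Abcb1b alone among them passed the test. RefSeq windows from 250 bases before to 50 after the start site (GRCm38.p6, the assembly of mm10) were found for 28 of the 39 members. Capitals mark the GC box GGGCGG, the CCAAT box CCAAT and the E box CACGTG, each searched on both strands.
Abcb1a chr5:8566841-8567140, plus strand: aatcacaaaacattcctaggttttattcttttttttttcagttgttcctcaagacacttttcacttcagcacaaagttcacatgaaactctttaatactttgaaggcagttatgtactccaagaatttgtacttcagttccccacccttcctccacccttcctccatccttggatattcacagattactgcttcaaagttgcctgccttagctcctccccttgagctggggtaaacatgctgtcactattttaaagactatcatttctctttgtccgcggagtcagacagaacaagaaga
Abcb1b chr5:8797897-8798196, plus strand: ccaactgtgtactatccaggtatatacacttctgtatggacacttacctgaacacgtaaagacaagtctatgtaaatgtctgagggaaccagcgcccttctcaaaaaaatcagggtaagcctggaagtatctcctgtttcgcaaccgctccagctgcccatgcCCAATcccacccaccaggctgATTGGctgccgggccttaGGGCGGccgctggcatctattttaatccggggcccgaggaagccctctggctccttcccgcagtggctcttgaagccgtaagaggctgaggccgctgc
Abcb4 chr5:8893471-8893770, plus strand: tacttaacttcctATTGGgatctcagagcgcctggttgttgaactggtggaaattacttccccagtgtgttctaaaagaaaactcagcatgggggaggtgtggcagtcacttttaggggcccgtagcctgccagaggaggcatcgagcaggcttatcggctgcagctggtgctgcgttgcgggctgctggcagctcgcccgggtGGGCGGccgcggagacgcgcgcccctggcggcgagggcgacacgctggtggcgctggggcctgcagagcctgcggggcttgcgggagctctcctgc

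The Abcb1b window holds 1 GC box and 2 CCAAT boxes, 1 on each strand, at a GC content of 55%. The Abcb4 window holds 1 GC box and 1 CCAAT box at 64% GC, and the Abcb1a window holds none of the motifs at 40.3% GC. No E box lies in any of the 3. Over all 32851 windows of the RefSeq table, 35.7% hold a GC box, 37.4% a CCAAT box and 7.15% an E box, and of the 34 windows of the members 55.9%, 35.3% and 8.82% do. These matches are descriptions of the letters. The RefSeq start of Abcb1a lies 92986 bases before the start in the GENCODE annotation used for the gene coordinates, so its window belongs to 1 of several possible starts.

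The remaining drug and conjugate pumps did not pass the test. Abcc1, which exports glutathione conjugates and leukotriene C4, was read at 34.9, 27.6 and 35.5 CPM across WT and 42.8, 30.3 and 41.5 across KO (log2 fold change 0.23, SE 0.23, edgeR adjusted p = 0.726). Its 95% interval ran from 0.828-fold to 1.66-fold. Abcc4, which exports cyclic nucleotides and prostaglandins, was read within a narrow range in WT, at 23.6, 23.7 and 24.3 CPM, and at 36.8, 21.9 and 33.0 in KO. KO 2 lay below WT and the other KO libraries above it, and the log2 fold change was 0.36 (SE 0.25, edgeR adjusted p = 0.574). Abcc5, another cyclic nucleotide exporter, was read at 8.40 to 13.4 CPM across WT and 6.92 to 22.9 across KO. Abcc10 was read at 2.15 to 3.74 CPM across WT and 1.76 to 5.54 across KO. Abcg2, the half-transporter known from the dye-excluding side population of stem cells, was at 1.17 to 1.87 CPM across WT and 0.565 to 2.36 across KO. For these 3 genes the WT range lay wholly within the KO range.

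Lipid and sterol exporters held no call among the 6 tested of 8 members in the table, with 4 above 0 and 2 below and a median log2 fold change of 0.17. Abca3, known as the lipid pump of lung surfactant bodies, was the highest of the A subfamily per length. It was read at 290, 180 and 219 CPM across WT and 146, 188 and 224 across KO (log2 fold change -0.30, SE 0.24, edgeR adjusted p = 0.637). Exons of D330041H03Rik on the opposite strand cover 9.75% of its exon bases. Abca7, a phospholipid exporter related to Abca1, was read at 88.0, 62.9 and 86.0 CPM across WT and 69.5, 42.5 and 58.7 across KO. Its log2 fold change of -0.47, with an SE of 0.24 (adjusted p = 0.443 in edgeR), was the lowest of the tested members, and the groups overlapped. Abca2, an endolysosomal lipid transporter, was read at 14.7, 14.9 and 13.4 CPM in WT. KO 1 held 29.8 CPM, above every WT library, and KO 2 and KO 3 held 8.33 and 12.2, below every one. The log2 fold change of Abca2 was 0.23 (SE 0.43, edgeR adjusted p = 0.879) with all libraries and -0.49 without KO 1.

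The mitochondrial half-transporters Abcb6, Abcb8 and Abcb10 had log2 fold changes from -0.46 to -0.28, and none passed. Abcb10, which is needed for haem synthesis in erythroid cells, was read at 50.7, 43.0 and 40.8 CPM across WT and 38.0, 30.4 and 29.5 across KO. The groups did not overlap, and the log2 fold change was -0.46 (SE 0.21, 95% interval -0.93 to 0.01, edgeR adjusted p = 0.408). Exons of Gm45890 on the opposite strand cover 10.3% of its exon bases.

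Abcb8 was read at 48.8, 32.8 and 53.3 CPM across WT and 37.1, 35.0 and 38.5 across KO (log2 fold change -0.28, SE 0.23). WT 2 was the lowest of the 6 libraries. Abcb6, a porphyrin transporter, was read at 10.8, 9.19 and 9.66 CPM across WT and 9.95, 6.35 and 6.79 across KO (log2 fold change -0.36, SE 0.33). Of its exon bases 55.2% are shared with Gm29253 on the same strand.

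Peroxisomal and lysosomal half-transporters held no call. Abcd3, a major peroxisomal membrane protein, was read at 24.2, 34.2 and 25.2 CPM across WT and 29.5, 24.6 and 32.1 across KO, with a log2 fold change of 0.04 (95% interval 0.720-fold to 1.47-fold). Abcd4, which moves cobalamin out of lysosomes, was read at 5.52, 5.67 and 5.30 CPM across WT and 10.5, 8.26 and 8.15 across KO. The groups did not overlap, and the WT libraries, with 17 to 29 counts each, lay close together. The log2 fold change of Abcd4 was 0.70 (SE 0.33, 95% interval -0.03 to 1.43, edgeR adjusted p = 0.411), and it was above 0 in all 18 alternatives, from 0.56 to 0.82.

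Soluble members held the first ranks of the family per length. Abcf2 led with 64.3 ± 10 CPM per kilobase of exon in WT and 54.8 ± 2.75 in KO (SD, n = 3). Abcf1, which binds the initiation factor eIF2, followed with 39.5 ± 12 and 45.0 ± 3.49, and Abce1, which splits ribosomes after termination, with 32.4 ± 21.3 and 32.9 ± 2.07. Abcf3 held 19.9 ± 2.68 and 17.1 ± 0.842 CPM per kilobase and ranked sixth of the family. In WT the libraries of Abcf1, at 30.8 to 53.2 CPM per kilobase, overlapped those of Abce1 and Abcf2, and in KO the libraries of the 3 genes did not overlap. With the longest transcript in place of all exon bases these 4 genes held the same ranks.

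None of the 4 passed the test, with log2 fold changes of -0.23 (SE 0.20) for Abcf2, 0.19 (SE 0.24) for Abcf1 and -0.21 (SE 0.20) for Abcf3. Abce1 was read at 96.4, 339 and 147 CPM across WT and 204, 205 and 183 across KO, so that the KO libraries lay inside the WT range. WT 2 stood above all others, and the log2 fold change went from 0.02 (SE 0.42) to 0.70 without it. Wholly within 2-fold either way lay the 95% intervals of 13 of the 28 tested members, Abcf1, Abcf2, Abcf3 and Abca3 among them.

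**Figure D4:**
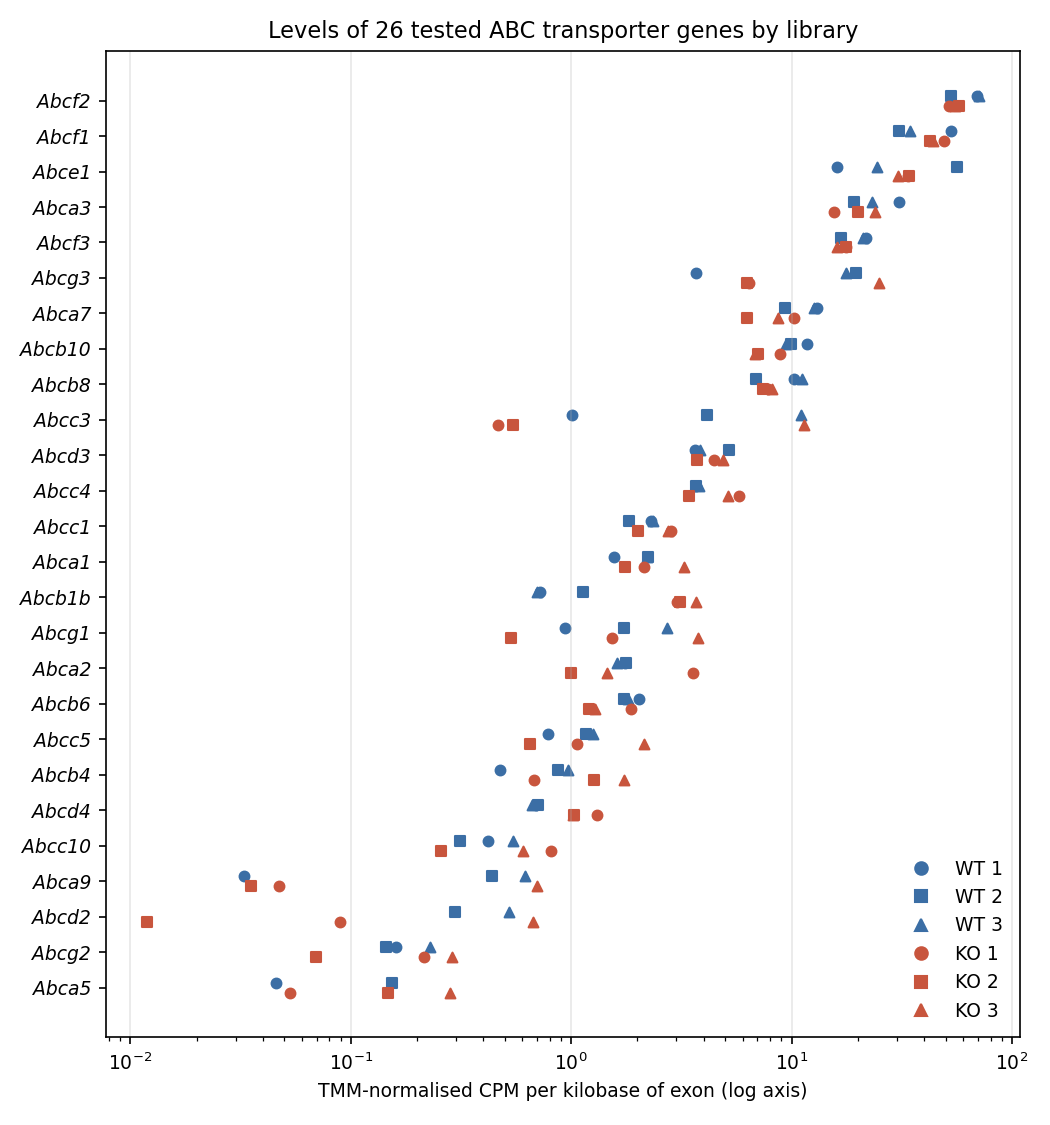
TMM-normalised CPM per kilobase of exon (log axis) of 26 tested ABC transporter genes in each library, ordered by mean level. The soluble members Abcf2, Abcf1 and Abce1 lead, the 3 KO points of Abcb1b lie to the right of its WT points, and libraries with 0 counts (Abca5 in WT 3, Abcd2 in WT 1) have no point.

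Per length Abcb1b ranked 21st of the 39 members in WT, at 0.850 ± 0.238 CPM per kilobase, and 15th in KO, at 3.27 ± 0.35 (SD, n = 3). In KO this placed it after Abcc3, at 4.14 ± 6.30, and before Abcc1, at 2.53 ± 0.454. The spread of Abcc3 included the level of Abcb1b, and the libraries of Abcc1 lay below those of Abcb1b. These levels depend on the length used: with the longest transcript the mean over all 6 libraries went from 2.06 to 3.82 CPM per kilobase for Abcb1b and from 2.35 to 5.22 for Abcc1, and Abcb1b ranked 16th in place of 17th. As a whole the family took 0.142%, 0.139% and 0.138% of all counts in WT and 0.141%, 0.123% and 0.165% in KO, so the KO libraries lay on both sides of WT.

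Several members differed far more between libraries of a genotype than between genotypes, and their levels stood beside the macrophage marker sum. Abcc3, an exporter of bile acid and glucuronide conjugates, was read at 5.78, 23.5 and 63.0 CPM across WT and 2.66, 3.11 and 65.0 across KO. Its highest KO library was 24.5 times its lowest. Abcg3, a rodent gene close to Abcg2, was read at 13.1, 69.6 and 62.7 CPM across WT and 22.9, 22.2 and 88.9 across KO. Abcg1, a sterol exporter of macrophages, was read at 6.83, 12.7 and 19.9 CPM across WT and 11.2, 3.88 and 27.6 across KO.

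Abca1, which loads cholesterol onto apolipoprotein A-I, was read at 16.3, 23.3 and 22.8 CPM across WT and 22.3, 18.3 and 33.6 across KO. It varied much less than Abcc3: its highest library was 1.43 times its lowest in WT and 1.84 times in KO. Abca9 was read at 0.263, 3.52 and 4.99 CPM across WT and 0.380, 0.282 and 5.65 across KO. Abcd2, a peroxisomal member, was read at 0, 1.76 and 3.12 CPM across WT and 0.532, 0.0706 and 4 across KO. For these 6 genes and Abcc5 the 3 highest libraries were KO 3, WT 3 and WT 2, which are also the 3 with the highest macrophage marker sums, although for Abca1 the lowest of these, WT 3, lay close to KO 1, at 22.8 and 22.3 CPM. That held for 7 of 28 tested members, or 25%, and for 4.71% of all genes tested. Abca9 and Abcd2 passed the filter on low counts only through their levels in KO 3, WT 3 and WT 2. For Abca9 and Abcd2 the order was thus set by the filter, and their part of the 25% is no result. The small erythroid marker sums were highest in the same 3 libraries. The part of macrophage or erythroid transcripts in these levels was not tested. In bulk RNA fewer cells of a type and less RNA per cell cannot be told apart. Abcb1b did not follow that order: KO 2 and KO 1, with the lowest macrophage sums of 227 and 278 CPM, held 25 and 24.1 CPM of Abcb1b.

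The genotype contrast of these members rested on single libraries. Abcc3 had a log2 fold change of -0.37 (SE 1.65, 95% interval -4.79 to 4.05), which was -3.44 without KO 3 and 0.67 without WT 3. Abcg3 went from -0.12 (SE 0.88) to -1.12 without KO 3, Abcg1 from 0.12 (SE 0.73) to -0.82, and Abca9 from -0.46 (SE 1.33) to -3.10. None of them passed in any of these fits. The log2 fold change of Abca1 was 0.25 (SE 0.28, edgeR adjusted p = 0.763) with all libraries and -0.05 without KO 3.

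**Figure D5:**
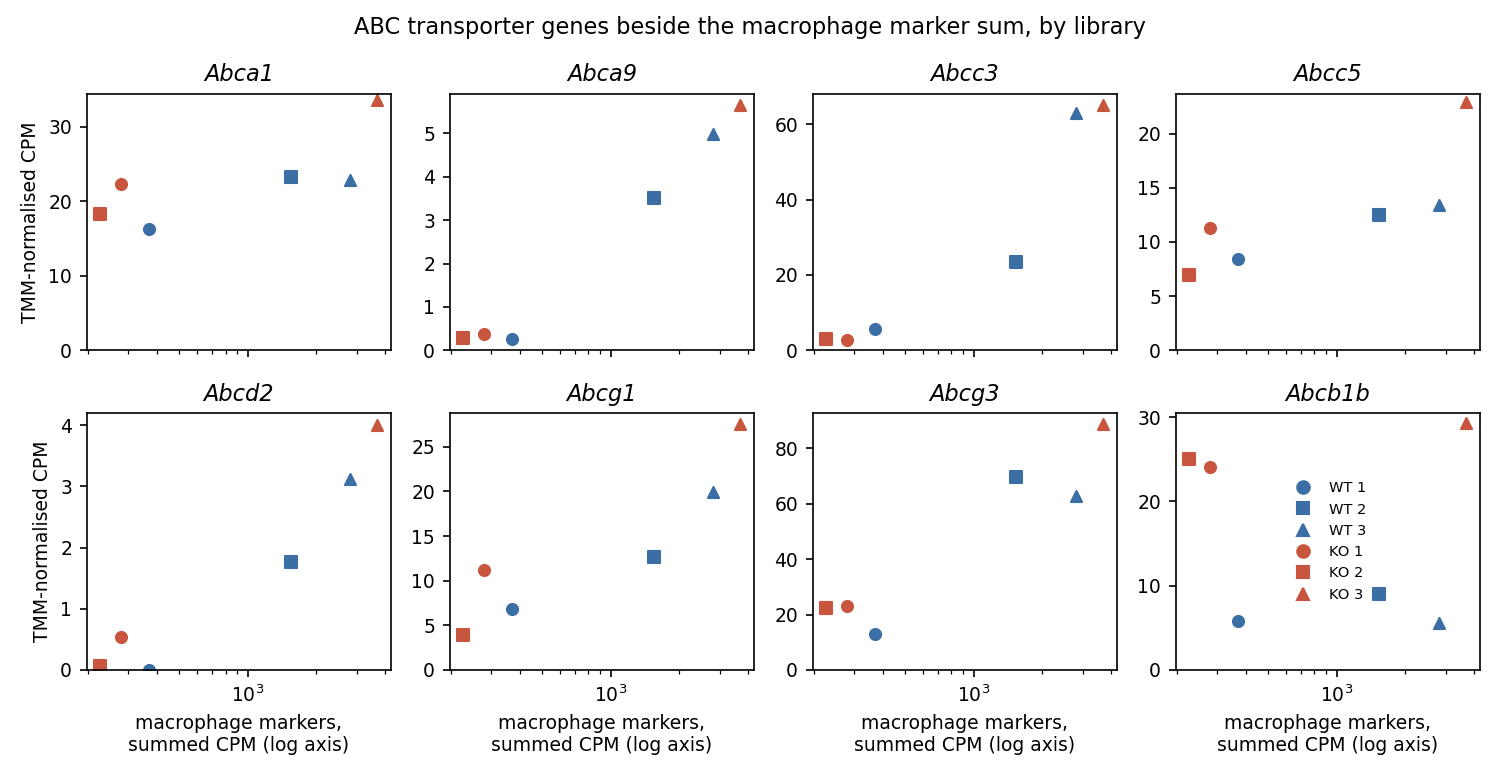
TMM-normalised CPM of 7 ABC transporter genes and of Abcb1b in each library, against the summed CPM of 15 macrophage markers (log axis). The 7 genes are highest in KO 3, WT 3 and WT 2, at the right of each panel, and Abcb1b is high in all 3 KO libraries whatever the marker sum.

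The 11 members that were not tested, Abcb1a among them, were at or near the detection limit. They had at most 13 counts in any library. Abcb9, the gene of a lysosomal peptide transporter, had at most 3 counts in any library, the bile salt pump gene Abcb11 had 1 count in WT 3 and none elsewhere, and the conjugate pump gene Abcc2 had 3 counts in KO 1 and 1 in KO 3. Abcc6, whose human counterpart is mutated in pseudoxanthoma elasticum, had at most 6 counts, Abcg4 at most 8 and Abca17 at most 3. Abca6, Abca12, Abcc12 and the intestinal sterol pump gene Abcg5 had at most 2 counts in any library. Abca5 passed the filter at 0.525, 1.76 and 0 CPM across WT and 0.608, 1.69 and 3.22 across KO, with a log2 fold change of 1.13 and a wide SE of 0.91.

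The genes that work with these transporters held no call either. Of 86 genes in 8 related lists 81 were tested and 0 passed, and 3 were higher and 2 lower at an unadjusted p under 0.05 (edgeR), where the background was 7.10% and 5.50%. Tap1 and Tap2, ABC genes under other symbols that carry peptides to MHC class I molecules, differed by 0.02 (SE 0.23) and -0.05 (SE 0.21) on the log2 scale. Of the 7 peptide loading genes 5 were above 0, with a median of 0.25. Of the 16 sterol sensing and transfer genes 13 were below 0, with a median of -0.19, and Rxrb, a partner of the liver X receptors, had the smallest p (log2 fold change -0.52, SE 0.22, edgeR adjusted p = 0.365). Of the 11 tested xenobiotic and glutathione genes 5 were above 0. Ahr, the dioxin receptor gene, went from 3.26 to 9.23 CPM on average without overlap of the groups (log2 fold change 1.47, SE 0.44, edgeR adjusted p = 0.26). Of the 9 cobalamin genes, the pathway of Abcd4, 6 were above 0, with Mtr, the methionine synthase gene, at 0.62 (SE 0.22, edgeR adjusted p = 0.299) and Mmab at 0.57 (SE 0.25). Of the 15 iron-sulphur and haem genes, the pathway of the mitochondrial members, 11 were below 0, with Glrx5 at -0.52 (SE 0.24, edgeR adjusted p = 0.396). The 12 peroxisome genes had a median of -0.14 and the 9 genes of ribosome splitting and rescue one of 0.07.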

How the data were processed

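Raw read counts, 1 row per gene symbol and 1 column per library, were deposited by the authors. The submitters' processing notes name CASAVA, STAR 2.5.2, featureCounts 1.5.2 and the build mm10. They give no gene annotation or strand setting, nor what was done with reads that match several genes. Groups and replicate numbers came from the sample labels. No pair of libraries in a group looked like 1 library counted again (chi-square per degree of freedom 14.4 to 50.9).

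Counts were tested with edgeR 4.0.16 (filterByExpr, TMM, robust quasi-likelihood fit, no covariates, two-sided, Benjamini-Hochberg over 10926 genes, threshold 0.05), and the ABC rows were read from that fit. For the Abcb1 sum the rows of Abcb1a and Abcb1b were replaced by their sum and the fit repeated. SE is the value implied by the F statistic, and intervals use edgeR's degrees of freedom. The common biological coefficient of variation was 30.8%. Levels per length are TMM-scaled CPM divided by the union of a gene's exons in GENCODE vM21, and marker sums use library totals. The tests were tried on simulated data first. There edgeR recovered 25.5% of the simulated 2-fold changes and 82% of the 4-fold changes, and 10.8% of its calls were unchanged genes. A member that did not pass may therefore still differ.

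The members, lists and tests were chosen with earlier results of these data known. Members named were Abcb1a and Abcb1b, any with an unadjusted p under 0.05, the highest of each subfamily per kilobase, and up to 4 of each role with at least 5 CPM in any library, 22 in all, and the others were named after their values were seen. Of the tested members 2 are counted in the totals but not reported here. Alternatives were 3 other scalings, no filter, a filter of at least 5 CPM in 3 libraries, DESeq2 1.42.0, limma-voom (limma 3.58.1) alone and with quality weights, a block for the replicate number, leaving out each library, thinning to the smallest library (11 draws, the draw with the median count of calls), and removal of a spline trend on length and GC content.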

Additional observations from a re-analysis of the deposited data

How the results depend on the processing

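Abcb1b was the only member called, and it passed in 13 of 18 alternatives. The number of members called was 0 with limma-voom, and 0 to 1 with 1 library left out. The log2 fold change of the summed Abcb1a and Abcb1b was 1.87 with limma-voom, where it missed the threshold, and 1.75 to 2.1 with 1 library left out, where it missed it without WT 2, WT 3 and KO 2. The median of the tested members lay between -0.23 and 0.21. With library sizes alone the median of all genes was 0.13, against 0.01 with TMM.

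The count of genes called over the whole table was 9, and it was 18 with library sizes alone, 93 with no filter, 122 with DESeq2, 2 with limma-voom, 18 with quality weights, 21 with the length and GC trend removed, 36 with that trend and the replicate block, and 1 to 24 with 1 library left out. With the replicate block alone it was 21, Abcb1b still passed (1.95, edgeR adjusted p = 0.0343) and the block changed no call of a member. Deviations of same-numbered libraries from their group means correlated at 0.341, -0.052 and 0.443. WT 1 and WT 3 correlated best with the KO library of their own number, and WT 2 best with KO 3, at 0.143. Whether the numbers pair the mice cannot be told from these values.

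The share of Abcb1b in the pair was 2.57 percentage points higher in KO, and -2.56 to 5.13 with 1 library left out, negative only without WT 1. Of the 26 tested members reported here 15 kept 1 sign in every alternative that could be run for them (13 for Abca5, 17 for Abcc10 and 18 for the others) and 11, none of them called, did not. The opposite signs were as follows, and the cause was not tested beyond the change of samples, scaling or tool itself. With library sizes alone Abcd2 was at 0.11 and Abcg3 at 0.04. With DESeq2 size factors, and with DESeq2, Abce1 was at -0.01. With limma-voom Abca2 was at -0.01, Abcg1 at -0.17 and Abcg2 at -0.16, and with quality weights Abcg1 and Abcg2 were at -0.19. With the replicate block Abcg1 was at -0.15 and Abcg2 at -0.05. With the length and GC trend removed Abca1 was at -0.15, Abcd3 at -0.16, Abce1 at -0.08, Abcg1 at -0.09 and Abcg2 at -0.31, and with the block added Abca1 was at -0.14, Abcc5 at -0.06, Abcd3 at -0.17, Abce1 at -0.05, Abcg1 at -0.25 and Abcg2 at -0.46. With 1 library left out Abca1 ran from -0.05 to 0.43, Abca2 from -0.49 to 0.56, Abca9 from -3.1 to 0.1, Abcc3 from -3.44 to 0.67, Abcc5 from -0.35 to 0.59, Abcd2 from -0.66 to 0.71, Abcd3 from -0.07 to 0.22, Abce1 from -0.31 to 0.7, Abcg1 from -0.82 to 0.57, Abcg2 from -0.03 to 0.52 and Abcg3 from -1.12 to 0.24.

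The WT depth of 3.39 to 5.52 M counts limits members below about 1 CPM, which rest on a few counts, and a count of 0 allows up to 0.935 CPM in the shallowest library. Whether replicates differ beyond the mouse in preparation is not given in the sources used here.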
